A study of Homo sapiens with 9 samples.

Results

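Cells that had lost XRCC1, the scaffold of single-strand break repair, were compared directly with cells that had lost APE1, the endonuclease that incises abasic sites. The comparison used 6 of the 9 libraries of the series, 3 labelled XRCC1-KO and 3 labelled APE1-KO. The remaining 3 libraries, labelled Control-KO, entered only as the common denominator of both deposited comparisons, and they cancel when the values of the knockouts are subtracted. For each gene the log2 fold change of APE1-KO was subtracted from that of XRCC1-KO, so a positive difference means a higher level in XRCC1-KO. No gene was chosen by its values, and 13051 of the 13052 genes in the tables had a standard error and were tested. XRCC1-KO, APE1-KO and Control-KO cells are all MCF10A, a non-transformed human mammary epithelial line, grown with horse serum, EGF, insulin, hydrocortisone and cholera toxin. The knockouts were derived from the Cas9-expressing control cells, whose genotype label is WT. Whether a knockout is 1 clone or a pool, and whether replicate libraries stem from different cultures, is not in the labels. The p-values thus rest on a spread that may be technical only, and differences between clones and differences between genotypes cannot be told apart.

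Base excision repair removes small base lesions. A DNA glycosylase cuts out the damaged base, APE1 nicks the backbone at the abasic site that remains, a polymerase fills the gap and a ligase seals it. XRCC1 has no enzymatic activity; it is drawn to single-strand breaks by poly(ADP-ribose) and holds DNA ligase 3, DNA polymerase beta and aprataxin there. Loss of APE1 thus leaves uncut abasic sites, while loss of XRCC1 leaves breaks that have been opened and not sealed, and APE1 also acts as a redox factor on transcription factors such as AP-1. Unrepaired breaks are known to activate p53 and, in senescent cells, NF-kB and the secretion of chemokines and cytokines.

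The targeted gene checked the APE1-KO label. APEX1, which encodes APE1 (ENSG00000100823.7, hg19 chr14:20923350-20925927, plus strand), had an estimated level of 197 CPM (reads of the gene scaled to a common library size) in XRCC1-KO, 68.7 CPM in APE1-KO and 194 CPM in Control-KO. Estimated levels are those implied by the deposited mean and fold changes, without an SD, since no library-level values entered. In bulk RNA, fewer cells of a type and less RNA per cell cannot be told apart. The level of APEX1 in XRCC1-KO stood at that of Control-KO, and APE1-KO held 34.9% of the XRCC1-KO level. The difference was 1.52 on the log2 scale, or 2.87-fold (95% interval 2.56 to 3.22), with an adjusted p of 4.72e-08 from the deposited edgeR statistics with Benjamini-Hochberg adjustment. XRCC1 (ENSG00000073050.7, hg19 chr19:44047192-44084625, minus strand) had estimated levels of 28.4 CPM in XRCC1-KO, 26.0 CPM in APE1-KO and 25.8 CPM in Control-KO. Its difference was 0.13 (95% interval -0.10 to 0.36; adjusted p = 0.752 with the same method). A frameshift need not lower a transcript, so XRCC1 mRNA is no check of that label, and each direction below is that of the libraries labelled XRCC1-KO.

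The genes beside both targets showed differences that did not pass the test. OSGEP, a tRNA modification enzyme whose gene starts 85 bp from APEX1 on the other strand, had 25.3 CPM in XRCC1-KO, 21.6 CPM in APE1-KO and 23.9 CPM in Control-KO. Its difference was 0.23 (95% interval 0.04 to 0.41). PIP4P1, which overlaps the end of APEX1 on the other strand, stood at -0.02 (-0.28 to 0.24). Beside XRCC1, ZNF575 stood at 0.24 (-0.62 to 1.10) and IRGQ at -0.05 (-0.32 to 0.23).

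Genes of both repair steps were at similar levels in the knockouts apart from APEX1. Of 10 measured genes of abasic site incision and gap filling, APEX1 was the 1 past the test, 8 lay above 0 and the median was 0.10, against 0.01 over all genes tested. TDP1, which removes stalled topoisomerase 1 from DNA ends, had 33.7 CPM in XRCC1-KO and 38.6 CPM in APE1-KO, with a difference of -0.20 (-0.41 to 0.02). PCNA, the sliding clamp, stood at 0.11, and APTX, which encodes aprataxin, at 0.14. The paralog APEX2, named after its value was seen, stood at -0.02 with 34.3 CPM in XRCC1-KO and 34.9 CPM in APE1-KO. Among 14 genes of XRCC1 and its partners, 10 lay above 0, the median was 0.11, and none reached an unadjusted p of 0.05. LIG3, the ligase that XRCC1 holds, had 35.8 CPM in XRCC1-KO and 40.6 CPM in APE1-KO (difference -0.18, SE 0.11), and POLL, a gap-filling polymerase, stood at 0.17 (SE 0.10). Of 11 DNA glycosylases 9 lay above 0, with a median of 0.10. Over all genes tested 51.5% lay above 0. A trend with transcript length and GC content, described below, ran through all genes. With it removed the medians were 0.06 for incision and gap filling, 0.04 for XRCC1 and its partners and 0.04 for glycosylases. OGG1, which excises 8-oxoguanine, had 13.1 CPM in XRCC1-KO and 10.8 CPM in APE1-KO (difference 0.28, SE 0.13), and MUTYH, which removes adenine opposite that lesion, stood at 0.30 (SE 0.16). With the trend removed OGG1 stood at 0.22 and MUTYH at 0.18.

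Beyond APEX1 no single gene passed. Of 13051 genes tested, 1 was higher in XRCC1-KO than in APE1-KO at an adjusted p under 0.05 (0.00766%) and 0 were lower (0%), by the Benjamini-Hochberg method on the edgeR-derived statistics. At an unadjusted p under 0.05, 362 genes were higher (2.77%) and 353 lower (2.7%), 715 in all (5.48%), where evenly spread p-values would give 652.55. The smallest adjusted p after APEX1 was 0.730. Differences lay above 0 in 6725 genes (51.5%) and below 0 in 6317 (48.4%). Among the 11317 genes at a mean log2 CPM of 1 or above, the middle 50% of differences ran from -0.10 to 0.10 and the median standard error was 0.11. At an unadjusted p under 0.001 there were 9 genes, of which 8 were higher; evenly spread p-values would give 13.05.

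**Figure D1:**
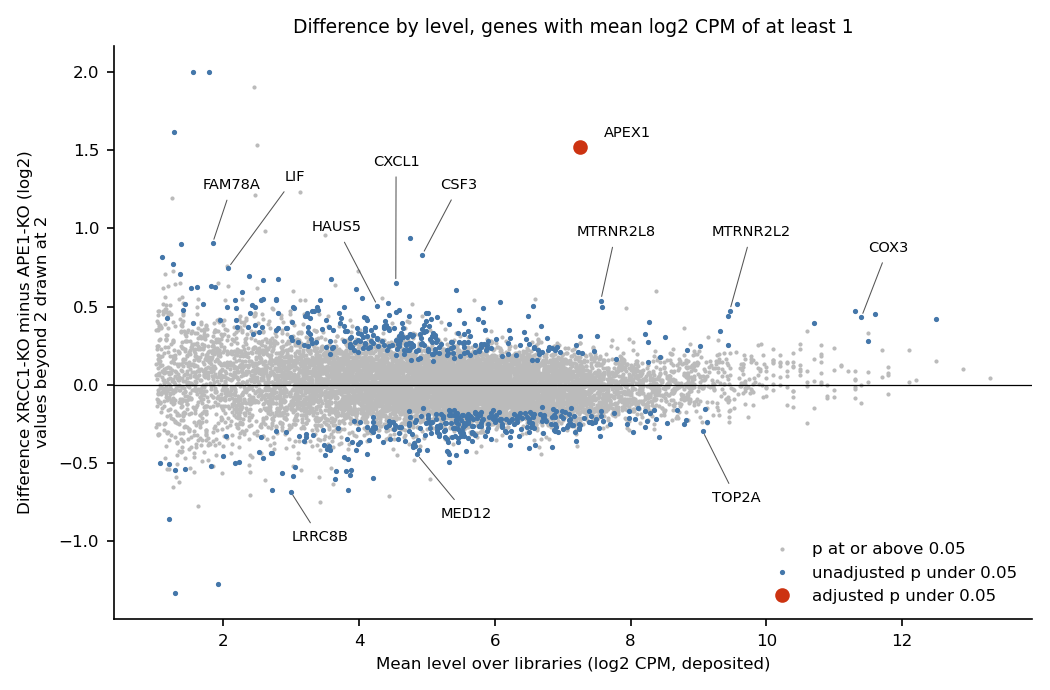
Difference XRCC1-KO minus APE1-KO (log2, vertical axis) against the deposited mean log2 CPM (horizontal axis) for 11317 genes with a mean of at least 1; grey points have an unadjusted p at or above 0.05, blue points lie under it and the red point passed the adjusted threshold. Values beyond 2 are drawn at 2, APEX1 is the 1 red point at 1.52, and the other labelled genes lie between -0.68 for LRRC8B and 0.90 for FAM78A.

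The genes with the smallest p-values on the higher side did not pass the adjusted test, and their values are given as such. HAUS5, a subunit of the augmin complex that seeds microtubules within the spindle, had 22.7 CPM in XRCC1-KO, 16 CPM in APE1-KO and 19.1 CPM in Control-KO. Its difference was 0.51 (95% interval 0.29 to 0.72, unadjusted p = 1.5e-04), with 0.25 for XRCC1-KO and -0.26 for APE1-KO in the authors' deposited tables. HAUS5 was the 1 gene with an unadjusted p under 0.05 in both deposited tables on opposite sides of 0. The other 7 subunits of augmin, looked up after that value was seen, stood between -0.15 and 0.19. ZC3H12A, an RNase that degrades inflammatory transcripts, had 38.8 CPM in XRCC1-KO, 29 CPM in APE1-KO and 32.3 CPM in Control-KO (difference 0.42, 0.22 to 0.62). GADD45B, a stress-induced regulator of kinase signalling, had 26.2 CPM in XRCC1-KO, 18.3 CPM in APE1-KO and 20.2 CPM in Control-KO (0.52, 0.24 to 0.81). FAM78A lay on opposite sides of 0 in the authors' deposited tables, at 0.47 for XRCC1-KO and -0.44 for APE1-KO, on a low estimated level of 4.76 CPM in XRCC1-KO and 2.54 CPM in APE1-KO. COQ6, an enzyme of ubiquinone synthesis, stood at 0.50, the centriolar satellite gene CEP131 at 0.45, and MAPK8IP3, a scaffold of JNK signalling and axonal transport, at 0.48. B4GALT7, which builds the linker of glycosaminoglycans, stood at 0.38, METRN, which encodes the secreted protein meteorin, at 0.46, the calcium-binding gene S100A3 at 0.56 and LENG8 at 0.50. The remaining 3 on this side, MTRNR2L2, MTRNR2L6 and MTRNR2L8, are nuclear copies of mitochondrial sequence and are described with the mitochondrial genes.

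On the lower side LRRC8B, a subunit of the volume-regulated anion channel, had the smallest p. It had 5.76 CPM in XRCC1-KO, 9.24 CPM in APE1-KO and 8.83 CPM in Control-KO, a difference of -0.68 (95% interval -1.02 to -0.35, unadjusted p = 5.6e-04). The other 4 channel subunits, looked up after that value was seen, stood between -0.16 and -0.04. MED12, of the Mediator kinase module, had 22.9 CPM in XRCC1-KO, 31.1 CPM in APE1-KO and 32.5 CPM in Control-KO (difference -0.44, -0.71 to -0.18). MCTP1, a calcium-sensing membrane protein, stood at -0.55, and ANK2, which encodes the membrane adaptor ankyrin-B, at -0.67 with 5.09 CPM in XRCC1-KO, 8.10 CPM in APE1-KO and 6.44 CPM in Control-KO. FOXP1, a forkhead transcription factor, stood at -0.36, the termination factor gene TTF2 at -0.38, the zinc finger genes ZFP30 and ZNF41 at -0.45 and -0.36, and the SNARE gene SNAP23 at -0.22. UBE4B, a ubiquitin chain elongation factor, stood at -0.20, the spindle gene DLGAP5 and the cell cycle gene PRR11 both at -0.26, GTDC1 at -0.38, GSTCD at -0.34 and FAM210A at -0.27. The 15 genes on the higher side, APEX1 included, had a median GC content of 57.7% and a median transcript length of 2118 nt. The 15 on the lower side had medians of 41.4% and 5396 nt.

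That contrast in GC content and length ran through the whole transcriptome. Nuclear genes whose mean log2 CPM was 1 or more were divided into 10 equal bins by transcript length. The median difference was 0.13 for the shortest transcripts and -0.13 for the longest. By GC content the medians were -0.10 in the lowest bin and 0.13 in the highest. Across 11175 genes Spearman's rho between the difference and transcript length was -0.512, and between the difference and GC content 0.461, a description only, as genes are no replicates. Genes in the lowest 25% for length and the highest 25% for GC numbered 1079, with a median of 0.14 and 90.2% above 0. The 1109 long and GC-poor genes had a median of -0.14 and 14.6% above 0. When a smooth trend of length and GC was subtracted, 303 of 12837 genes were higher at an unadjusted p under 0.05 (2.36%) and 139 lower (1.08%). Over genes whose mean log2 CPM was 1 or more, the robust SD of the test statistic was 0.901, against 1.32 before. How far RNA quality, library preparation or quantification enters this trend was not tested. Many lists below are given with their median before and after the subtraction. A median given without mention of the trend is the one before it.

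**Figure D2:**
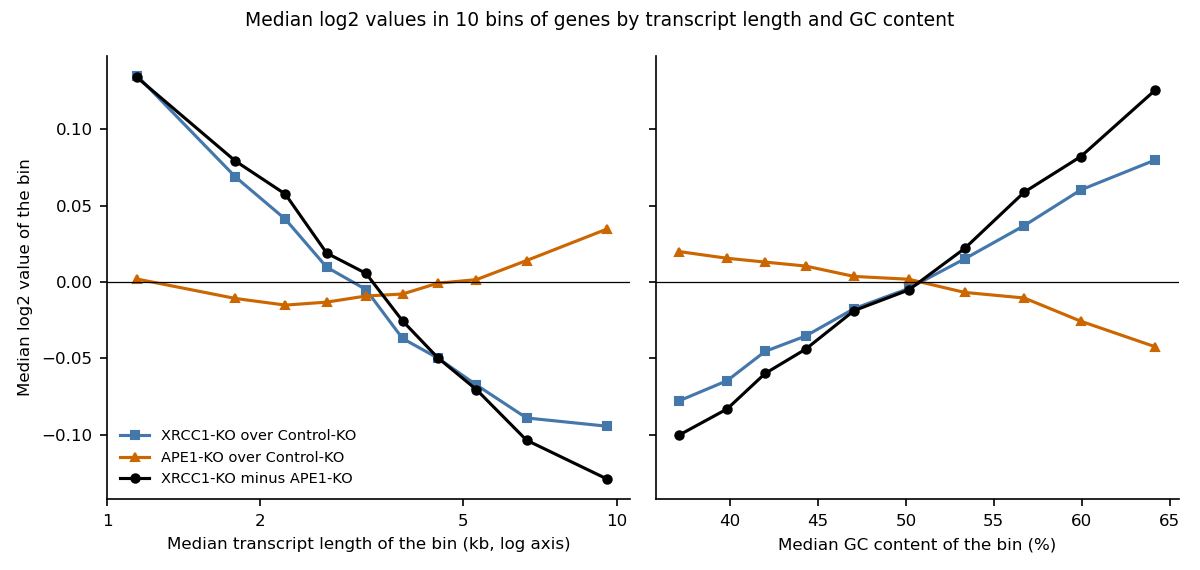
Median log2 value (vertical axis) in 10 equal bins of nuclear genes by transcript length (left, kb on a log axis) and GC content (right, percent), for XRCC1-KO over Control-KO (blue), APE1-KO over Control-KO (orange) and their difference (black). The difference falls along the length bins, 0.13 in the first and -0.13 in the last, and climbs along the GC bins, -0.10 in the first and 0.13 in the last.

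Chemokines and cytokines of the senescence-associated secretory phenotype formed the list with the largest median among those with more than 5 measured genes, before the length and GC trend was removed. After it was removed, the protein genes of mitochondrial DNA had a slightly larger median, at 0.27. Of 21 measured genes in a list of 32, 17 lay above 0 and the median difference was 0.37, or 1.29-fold, against 0.01 over all genes. At an unadjusted p under 0.05, 7 were higher and 0 lower, or 33.3% higher against 2.77% of all genes, and none passed the adjusted threshold. With the trend removed the median was 0.26, 18 of 21 lay above 0, and 5 were higher and 0 lower at that level.

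Of the 16 promoters found for this list, 4 hold the letters GGAATTTCC, a known site for NF-kB, and these 4 are shown. They were chosen with their positive differences known, so match and difference are not independent. The printed promoters of CXCL1, CXCL2 and CXCL3 are nearly alike, so their matches are not independent of each other. The sequences are RefSeq promoters on GRCh38.p14, from 130 bases before to 20 bases after the start site, with the matches to GGAATTTCC in capitals. They cover chr4:73869263-73869412 on the plus strand for CXCL1, chr4:74099176-74099325 on the minus strand for CXCL2, chr4:74038670-74038819 on the minus strand for CXCL3 and chr4:73740439-73740588 on the plus strand for CXCL8.
CXCL1: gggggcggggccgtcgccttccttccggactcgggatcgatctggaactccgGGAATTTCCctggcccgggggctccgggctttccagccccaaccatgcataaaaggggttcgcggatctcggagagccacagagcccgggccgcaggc
CXCL2: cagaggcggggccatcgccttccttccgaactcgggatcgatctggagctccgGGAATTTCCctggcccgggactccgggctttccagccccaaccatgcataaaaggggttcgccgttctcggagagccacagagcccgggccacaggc
CXCL3: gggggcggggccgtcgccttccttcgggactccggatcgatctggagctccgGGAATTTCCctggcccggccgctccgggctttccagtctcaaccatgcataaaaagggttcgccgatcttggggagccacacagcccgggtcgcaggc
CXCL8: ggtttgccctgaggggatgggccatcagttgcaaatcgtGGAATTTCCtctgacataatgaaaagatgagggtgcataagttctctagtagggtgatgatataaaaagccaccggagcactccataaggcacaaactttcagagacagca
The match begins at -78 in CXCL1 and CXCL3, at -77 in CXCL2 and at -91 in CXCL8, counted from the start site. GGAATTTCC or its reverse complement GGAAATTCC was present in 4 of the 16 promoters found for this list, in 5 of 20 for NF-kB subunits and feedback inhibitors, in 1 of 29 for interferon-stimulated genes, in 0 of 33 for DNA replication and in 0.461% of all 35116 promoters of 300 bases. The 4 genes with a match in the chemokine list had differences of 0.65 for CXCL1, 0.35 for CXCL2, 0.97 for CXCL3 and 0.61 for CXCL8. The 5 in the NF-kB list stood at 0.22 for ICAM1, 0.18 for NFKBIA, 0.11 for NFKBIZ, -0.10 for NFKB1 and -0.12 for REL. A match describes these letters and shows no binding, and a link between match and difference was not tested.

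The neutrophil chemokines CXCL1 and CXCL8 stood apart from Control-KO in APE1-KO. CXCL1 had 26.6 CPM in XRCC1-KO, 16.9 CPM in APE1-KO and 26.3 CPM in Control-KO, a difference of 0.65 (95% interval 0.18 to 1.12). CXCL8, which encodes interleukin 8, had 17.3 CPM in XRCC1-KO, 11.3 CPM in APE1-KO and 18 CPM in Control-KO (0.61, 0.04 to 1.18). For both genes the XRCC1-KO level lay near that of Control-KO. CXCL3, a chemokine of the same family, had 0.852 CPM in XRCC1-KO, 0.436 CPM in APE1-KO and 0.323 CPM in Control-KO (0.97, SE 0.52), so here XRCC1-KO stood apart, at a low level. IL1B, named after its value was seen, had 30.8 CPM in XRCC1-KO, 21.6 CPM in APE1-KO and 30.1 CPM in Control-KO (0.51, SE 0.29). For other members the XRCC1-KO level was the one that stood apart. LIF, a cytokine of the interleukin 6 family, had 5.71 CPM in XRCC1-KO, 3.4 CPM in APE1-KO and 3.49 CPM in Control-KO (0.75, SE 0.27). IL1A, an upstream inducer of the secretory programme, had 66.6 CPM in XRCC1-KO, 50.4 CPM in APE1-KO and 53.6 CPM in Control-KO (0.40, SE 0.13). CSF3, which encodes the granulocyte growth factor G-CSF, lay on both sides of the control level, with 39.3 CPM in XRCC1-KO, 22.1 CPM in APE1-KO and 30.0 CPM in Control-KO (0.83, SE 0.28). CCL20 stood at 0.37 and the stress cytokine GDF15 at 0.54. The lowest member was TNFSF10, which encodes the death ligand TRAIL, at -0.40 with an SE of 0.38.

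Genes of the NF-kB pathway itself leaned the same way by less. Of 23 measured subunits and feedback inhibitors 16 lay above 0, and the median was 0.10 (0.07 with the trend removed). At an unadjusted p under 0.05, 2 were higher and 0 lower, or 8.70% higher against 2.77% of all genes. With the trend removed 0 of 23 were past that level. RELB, a subunit of the alternative pathway, had 22.9 CPM in XRCC1-KO, 17.7 CPM in APE1-KO and 21.4 CPM in Control-KO (0.37, SE 0.14). TNIP1, a partner of the inhibitor A20, had 333 CPM in XRCC1-KO, 276 CPM in APE1-KO and 304 CPM in Control-KO (0.27, SE 0.11), and TNIP2, of the same family, stood at 0.20. NFKBIA, which encodes the inhibitor IkB-alpha, stood at 0.18 (SE 0.08). The subunits REL and NFKB1, named after their values were seen, stood at -0.12 and -0.10, and with the trend removed at 0.04 and -0.07.

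**Figure D3:**
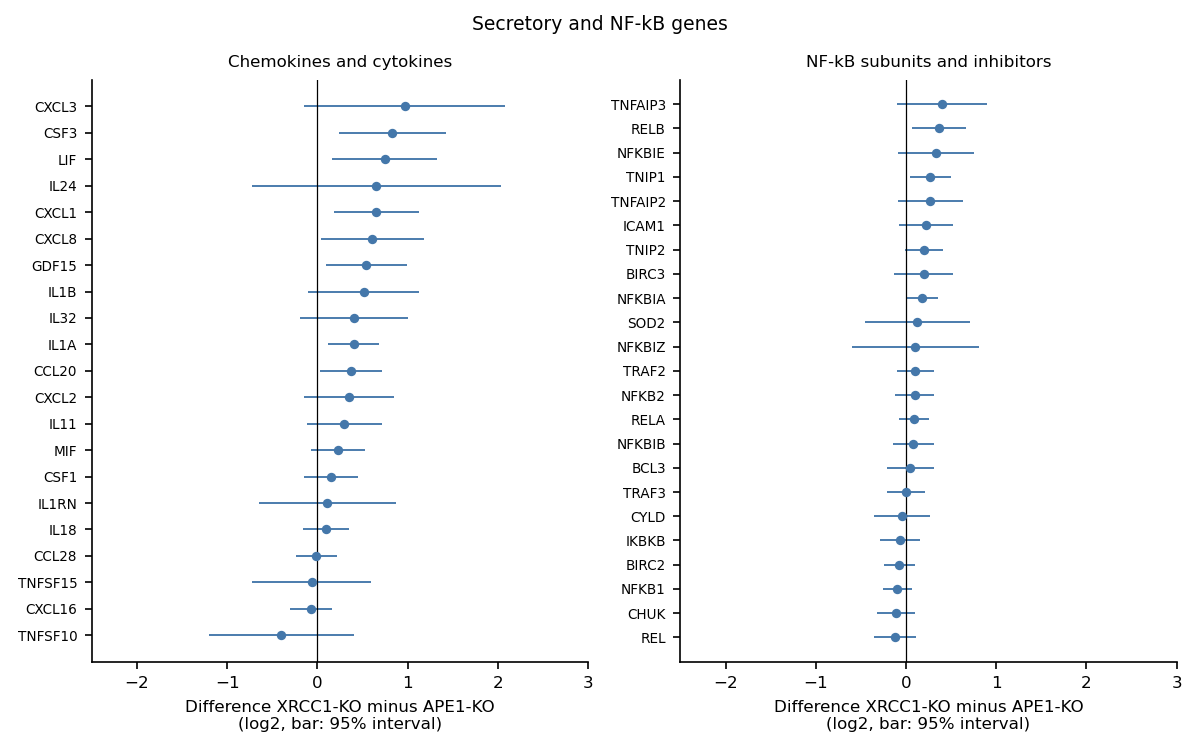
Difference XRCC1-KO minus APE1-KO (log2, horizontal axis) for each measured chemokine or cytokine (left) and NF-kB subunit or inhibitor (right), with bars for the 95% interval. On the left 17 of 21 points lie above 0, with CXCL3 highest at 0.97 on a wide interval, and on the right 16 of 23 lie above 0, with TNFAIP3 highest at 0.40.

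Immediate early genes lay mostly above 0. Among 29 AP-1 and immediate early genes 22 lay above 0, 5 were higher and 0 lower at an unadjusted p under 0.05, or 17.2% higher against 2.77% of all genes, and the median was 0.11. With the trend removed the median was 0.08 and 1 of 29, CCN1, was higher at that level, or 3.45% against 2.32% of all genes. CCN1, a matrix protein induced by serum and stretch, had 55.7 CPM in XRCC1-KO, 42.4 CPM in APE1-KO and 42.4 CPM in Control-KO (0.39, SE 0.13). JUNB, an AP-1 subunit, stood at 0.30 and HBEGF, a ligand of the EGF receptor, at 0.36. CCN2, also a matrix protein, stood at 0.46, and DUSP5, an ERK phosphatase, at 0.26. Another EGF receptor ligand, AREG, had 118 CPM in XRCC1-KO, 91.1 CPM in APE1-KO and 98.5 CPM in Control-KO (0.37, SE 0.11), while 12 of the 25 genes in its list lay above 0, with a median of 0.00. Of 27 genes of TGF-beta and activin signalling 13 lay above 0, and the median was -0.03 (0.03 with the trend removed). At an unadjusted p under 0.05, 2 were higher (7.41% against 2.77% of all genes) and 1 lower (3.70% against 2.7%). The higher ones, ID1 and ID2, inhibitors of basic helix-loop-helix factors, both stood at 0.51, and the lower one, LTBP1, at -0.23 (SE 0.10). With the trend removed ID1 stood at 0.34, ID2 at 0.45 and LTBP1 at -0.16. ID1 had 110 CPM in XRCC1-KO, 77.7 CPM in APE1-KO and 95.2 CPM in Control-KO.

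Targets of p53 were higher in XRCC1-KO than in APE1-KO in several members, without passing the adjusted test. Of 15 targets in cell cycle arrest and feedback, 11 lay above 0 and 6 were higher and 0 lower at an unadjusted p under 0.05, or 40% against 2.77% of all genes. The median was 0.14 both before and after the trend was removed. After it 3 of 15 were higher at that level, or 20% against 2.36% of all genes. Of 15 targets in cell death 11 lay above 0 (median 0.06, then 0.04). At that level 3 were higher, then 1, or 20%, then 6.67%. Of 12 in repair and metabolism 8 lay above 0 (0.10, then 0.09), with 1 higher, then 2, or 8.33%, then 16.7%. A higher p53 target set in XRCC1-KO was already known from the comparison with Control-KO, and these counts are not independent of it. Trend removal moved RPS27L from 0.30 to 0.41 and FBXO22 from 0.20 to 0.36. It used the longest coding transcript, of 6434 nt for RPS27L and 10725 nt for FBXO22. Whether the cells express those transcripts was not tested.

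CDKN1A, which encodes the kinase inhibitor p21, had 224 CPM in XRCC1-KO, 180 CPM in APE1-KO and 139 CPM in Control-KO. Its difference was 0.31 (95% interval 0.07 to 0.55), so APE1-KO lay between XRCC1-KO and Control-KO. The same order held for TP53INP1, a cofactor of autophagy and cell death, with 14.4 CPM in XRCC1-KO, 10.9 CPM in APE1-KO and 8.88 CPM in Control-KO. It also held for GDF15, with 9.07 CPM in XRCC1-KO, 6.24 CPM in APE1-KO and 5.15 CPM in Control-KO, and for RPS27L, a ribosomal protein paralog, with 41.4 CPM, 33.6 CPM and 29.4 CPM in those groups. BTG2, an antiproliferative gene, had 29.2 CPM in XRCC1-KO, 24.3 CPM in APE1-KO and 23.9 CPM in Control-KO (0.26, SE 0.09), and PLK3, a stress kinase, had 31.2 CPM, 25.2 CPM and 26.1 CPM in the same order (0.31, SE 0.10). For these 2 genes APE1-KO lay near Control-KO. FDXR, an electron carrier enzyme of mitochondria, stood at 0.28, the pore-forming BAX at 0.21, PLK2 at 0.20 and the ubiquitin ligase subunit FBXO22 at 0.20. Other targets were close between the knockouts before the trend was removed. ZMAT3, named after its value was seen, had 64.0 CPM in XRCC1-KO, 64.6 CPM in APE1-KO and 51.8 CPM in Control-KO (-0.01, SE 0.12), and MDM2, the ubiquitin ligase of p53, had 157 CPM, 154 CPM and 146 CPM (0.03, SE 0.11). ZMAT3 stood at 0.14 and MDM2 at 0.17 with the trend removed.

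**Figure D4:**
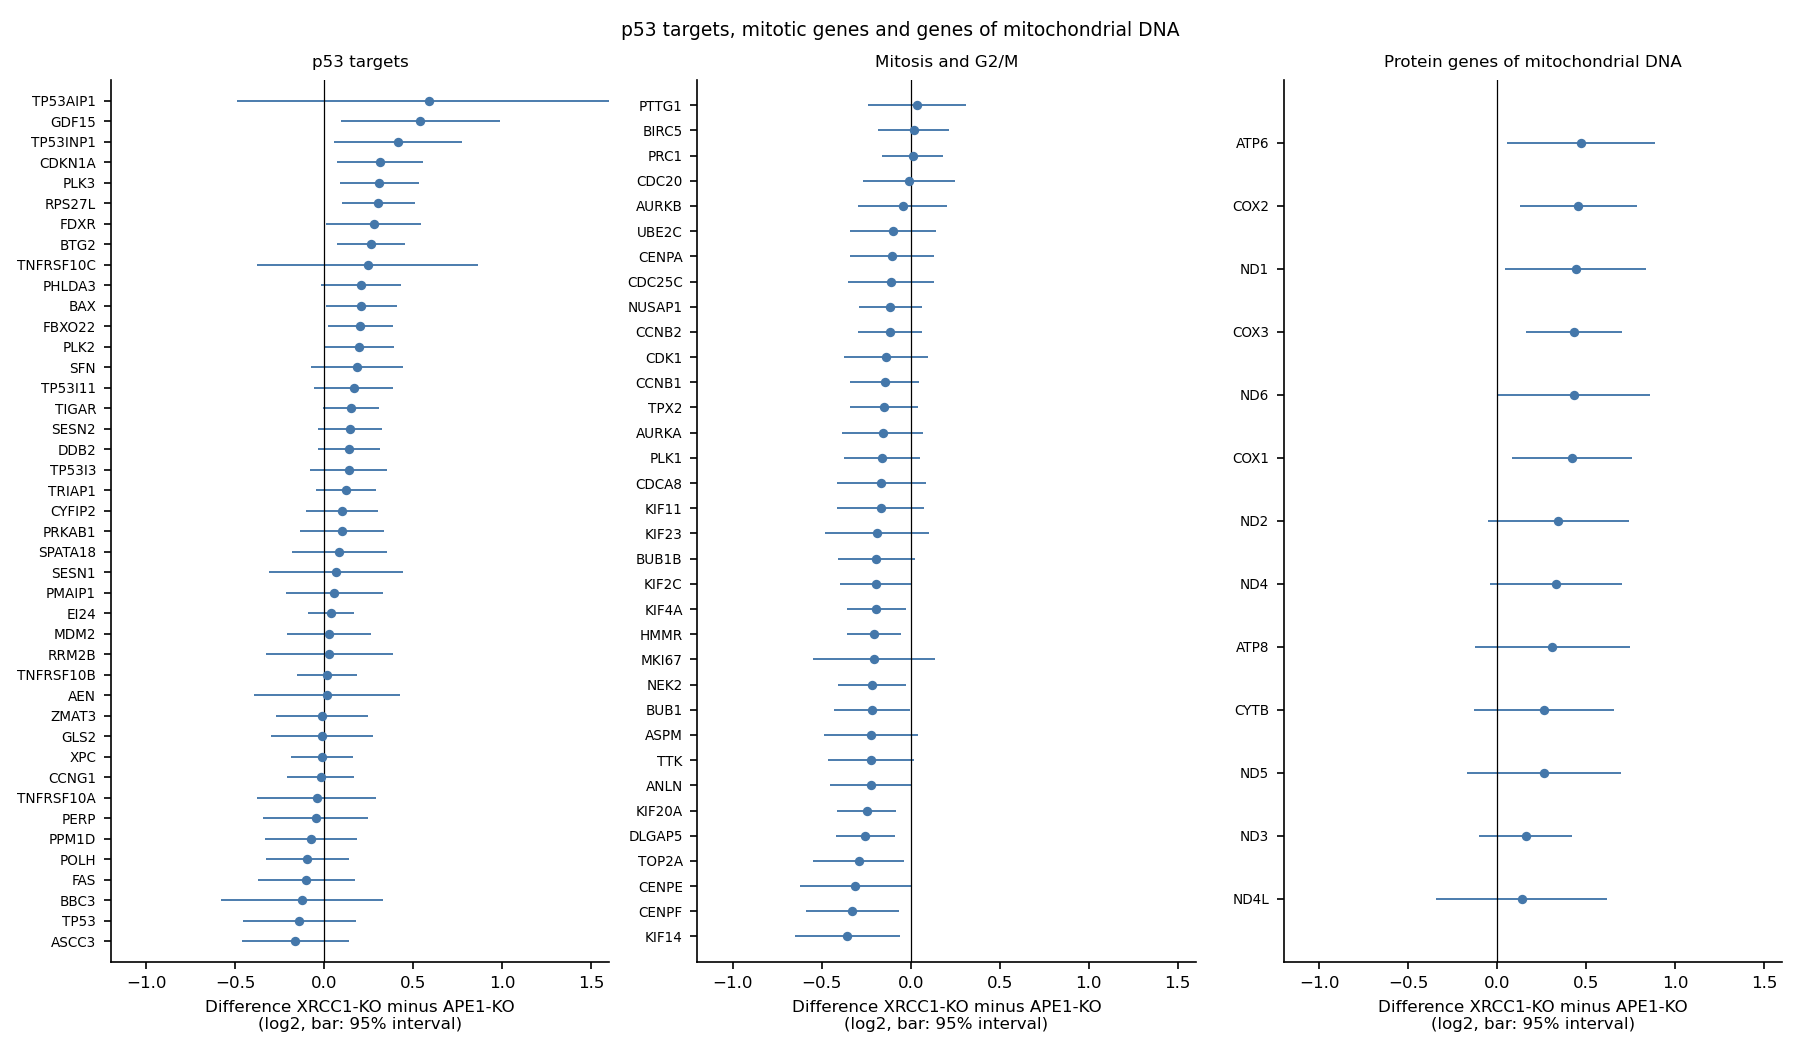
Difference XRCC1-KO minus APE1-KO (log2, horizontal axis) for each measured p53 target (left), gene of mitosis and G2/M (middle) and protein gene of mitochondrial DNA (right), with bars for the 95% interval; the bar of TP53AIP1 runs past the axis. Of 34 mitotic genes 31 lie below 0, all 13 mitochondrial genes lie above 0, and the p53 targets run up to 0.59 for TP53AIP1, on a wide interval, and 0.54 for GDF15.

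Genes of mitosis were lower in XRCC1-KO, again as small differences that did not pass singly. Of 34 measured genes of mitosis and G2/M, 3 lay above 0 and 31 below, and 9 were lower and 0 higher at an unadjusted p under 0.05, or 26.5% against 2.7% of all genes. The median was -0.18, or 0.883-fold. With the trend removed it was -0.15, 33 of 34 lay below 0, and 4 were lower and 0 higher at that level, or 11.8% against 1.07% of all genes. KIF20A, a kinesin of cytokinesis, had 182 CPM in XRCC1-KO, 217 CPM in APE1-KO and 225 CPM in Control-KO (-0.25, SE 0.08). DLGAP5, which bundles spindle microtubules, had 104 CPM in XRCC1-KO, 124 CPM in APE1-KO and 128 CPM in Control-KO. The level of CENPF, a kinetochore protein, was 296 CPM in XRCC1-KO, 372 CPM in APE1-KO and 360 CPM in Control-KO (-0.33, SE 0.12), and HMMR, a spindle-associated protein, stood at -0.20 (SE 0.07). TOP2A, the topoisomerase of dividing cells, had 464 CPM in XRCC1-KO, 569 CPM in APE1-KO and 567 CPM in Control-KO (-0.29, SE 0.12). Further members past that level were the kinesins KIF14 at -0.36 and KIF4A at -0.19, the centrosomal kinase NEK2 at -0.22 and the checkpoint kinase BUB1 at -0.22. CDC20, BIRC5, PRC1 and PTTG1, named after their values were seen, lay between -0.01 and 0.03. Their values with the trend removed were -0.12 for CDC20, -0.08 for PTTG1, -0.01 for BIRC5 and 0.05 for PRC1.

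Promoters of mitotic genes are known for CCAAT boxes, bound by the factor NF-Y, and 4 are shown for the members with the smallest p. Capitals mark CCAAT or, on the other strand, ATTGG, over the same 150 bases of RefSeq promoters on GRCh38.p14. They cover chr14:55191566-55191715 on the minus strand for DLGAP5, chr5:138178982-138179131 on the plus strand for KIF20A, chr5:163460502-163460651 on the plus strand for HMMR and chr1:214603065-214603214 on the plus strand for CENPF.
DLGAP5: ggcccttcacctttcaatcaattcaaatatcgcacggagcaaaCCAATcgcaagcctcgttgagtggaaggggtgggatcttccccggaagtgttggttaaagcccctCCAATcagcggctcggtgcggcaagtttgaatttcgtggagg
KIF20A: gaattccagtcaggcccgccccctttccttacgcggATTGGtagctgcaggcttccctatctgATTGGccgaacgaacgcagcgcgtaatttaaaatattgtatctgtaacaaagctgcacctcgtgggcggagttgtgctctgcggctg
HMMR: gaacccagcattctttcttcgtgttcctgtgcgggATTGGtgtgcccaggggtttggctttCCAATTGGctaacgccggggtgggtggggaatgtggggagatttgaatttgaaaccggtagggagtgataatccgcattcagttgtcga
CENPF: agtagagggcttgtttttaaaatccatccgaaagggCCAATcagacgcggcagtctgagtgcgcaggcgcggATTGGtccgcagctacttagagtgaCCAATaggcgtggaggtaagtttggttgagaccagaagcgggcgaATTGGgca
CCAAT on either strand was present in 24 of the 29 promoters found for the mitotic list, or 82.8%. It was present in 17 of 33 for DNA replication (51.5%), in 9 of 29 for interferon-stimulated genes (31%) and in 34.6% of all 35116 promoters of 300 bases. In HMMR a CCAAT and an ATTGG overlap and read as 1 run of capitals. These matches describe the letters in the window and show no binding.

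The DNA replication genes had a median close to that of all genes. Of 37 measured genes of replication and G1/S, 18 lay above 0, and the median was 0.00 (-0.02 with the trend removed). RFC5, a subunit of the clamp loader, was the 1 member with an unadjusted p under 0.05, at -0.18 (SE 0.07). That is 2.70% lower against 2.7% of all genes, so the list held no larger share. TYMS, which makes thymidylate, stood at 0.15, CDC45, of the replicative helicase, at 0.15, and E2F1, a driver of S-phase transcription, at 0.22. Whether replication and mitosis lists differ from each other was not tested. Among 13 CDK inhibitors, pocket proteins and G1 cyclins the median was -0.05, and RB1 had 107 CPM in XRCC1-KO, 129 CPM in APE1-KO and 122 CPM in Control-KO (-0.27, SE 0.12). CDKN1B, which encodes p27, stood at -0.16. The 18 lamina, HMG and HP1 genes had a median of -0.02, with 0 past an unadjusted p of 0.05. In that list LMNB2, a B-type lamin, had 390 CPM in XRCC1-KO, 423 CPM in APE1-KO and 453 CPM in Control-KO.

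The protein genes encoded in mitochondrial DNA lay above 0 in 13 of 13 cases. Their median difference was 0.34, or 1.27-fold, and 0.27 with the trend removed, and 6 of 13 were higher at an unadjusted p under 0.05, or 46.2% against 2.77% of all genes. After the trend was removed 3 of 13, COX1, COX2 and COX3, were higher at that level, or 23.1% against 2.36% of all genes. The trend was fitted on nuclear genes and held flat for the shortest of them. The 13 mitochondrial genes have a median length of 784 nt, against 1145 nt in the shortest bin of nuclear genes. Whether the trend holds at such lengths was not tested. COX3 (current symbol MT-CO3), a subunit of cytochrome oxidase, had 3276 CPM in XRCC1-KO, 2429 CPM in APE1-KO and 2403 CPM in Control-KO (0.43, SE 0.13). COX2 (MT-CO2) stood at 0.46, COX1 (MT-CO1) at 0.42, and ATP6 (MT-ATP6), of the ATP synthase, at 0.47. ND1 and ND6 (MT-ND1 and MT-ND6), subunits of complex I, stood at 0.44 and 0.43. ND6 is the protein gene of the light strand, and it had 46.2 CPM in XRCC1-KO, 34.3 CPM in APE1-KO and 26.1 CPM in Control-KO. The lowest member was ND4L at 0.14. These 13 genes come from 1 precursor RNA per strand and are not independent of each other.

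Nuclear genes that share sequence with mitochondrial DNA stood as high. MTRNR2L8, MTRNR2L6 and the gene deposited as MTRNR2L2 (ENSG00000269028.2, named MTRNR2L12 in GENCODE 29) are copies of the mitochondrial 16S rRNA gene, so their reads can belong to the mitochondrial transcript. MTRNR2L2 had 883 CPM in XRCC1-KO, 636 CPM in APE1-KO and 593 CPM in Control-KO (0.47, 95% interval 0.25 to 0.70). MTRNR2L8 had 243 CPM in XRCC1-KO, 167 CPM in APE1-KO and 156 CPM in Control-KO (0.54, 0.28 to 0.80), and MTRNR2L6 stood at 0.60 (0.29 to 0.91). The level of nuclear factors that copy and transcribe mitochondrial DNA did not lean the same way: 11 of 23 lay above 0 and the median was -0.02. MTERF4, which acts in mitochondrial ribosome assembly, stood at -0.31 (SE 0.10), and LRPPRC, which stabilises mitochondrial mRNA, had 265 CPM in XRCC1-KO, 301 CPM in APE1-KO and 287 CPM in Control-KO.

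Short nuclear transcripts of the respiratory chain and of ribosomes lay above 0 in most members, with smaller medians once the length and GC trend was removed. Of 37 nuclear-encoded complex I subunits 35 lay above 0, with a median of 0.17, and 30 lay above 0, with a median of 0.07, after the trend was removed. Of 39 genes of complexes II to V 37 lay above 0, then 27 (0.12, then 0.07), and of 75 mitochondrial ribosomal proteins 64, then 46 (0.12, then 0.03). Cytosolic ribosomal proteins lay above 0 in 78 of 79 genes, then 58, with a median of 0.14, then 0.05. Members past an unadjusted p of 0.05 were few, 1 of 37, 1 of 39, 3 of 75 and 3 of 79, shares that lie near the 2.77% of all genes. Examples are NDUFB9 of complex I at 0.21, ATP5MF of the ATP synthase at 0.22 and MRPL34 of the mitochondrial ribosome at 0.36. The 32 proteasome genes had a median of 0.09, then 0.03, with 0 members past that level. Aminoacyl-tRNA synthetases, which load amino acids onto tRNA, had a median of 0.02 over 20 genes.

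Differentiation genes of stratified epithelium lay mostly above 0. Of 27 measured genes of the cornified envelope and squamous differentiation, in a list of 40, 24 lay above 0. The median was 0.23, or 0.16 with the trend removed. At an unadjusted p under 0.05, 4 were higher and 0 lower, or 14.8% higher against 2.77% of all genes. With the trend removed 2 were higher, or 7.41% against 2.36%. CST6, a cystatin of the epidermis, had 7.30 CPM in XRCC1-KO, 4.50 CPM in APE1-KO and 3.71 CPM in Control-KO (0.70, SE 0.22). EVPL, which encodes envoplakin, had 112 CPM in XRCC1-KO, 96.4 CPM in APE1-KO and 102 CPM in Control-KO (0.21, SE 0.09), and TGM2, a transglutaminase, stood at 0.71 (SE 0.31). SPRR3 had under 1 CPM in XRCC1-KO, APE1-KO and Control-KO. Of 13 S100 genes 12 lay above 0 with a median of 0.29, then 0.14. S100A3 had 21 CPM in XRCC1-KO, 14.3 CPM in APE1-KO and 14 CPM in Control-KO, and S100A6 had 1070.1 CPM in XRCC1-KO, 896 CPM in APE1-KO and 860 CPM in Control-KO. Of 17 keratins 14 lay above 0, with a median of 0.14, then 0.06. KRT7, a simple epithelial keratin, had 3291 CPM in XRCC1-KO, 2714 CPM in APE1-KO and 2684 CPM in Control-KO (0.28, SE 0.13). The 5 measured kallikreins of 15 had a median of 0.46, and -0.01 over the 2 whose mean log2 CPM was 1 or more.

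Junction genes and the regulators of epithelial identity had medians below 0. Of 30 desmosome, nectin and tight junction genes 8 lay above 0, and the median was -0.08 (-0.03 with the trend removed). At an unadjusted p under 0.05, 2 were lower, or 6.67% against 2.7% of all genes. With the trend removed 0 of 30 were past that level. NECTIN3, an adhesion receptor, had 18.8 CPM in XRCC1-KO, 23.9 CPM in APE1-KO and 23.3 CPM in Control-KO (-0.35, SE 0.14), and DSC3, a basal desmocollin, stood at -0.30. With the trend removed NECTIN3 stood at -0.28 and DSC3 at -0.17. Of 21 genes of Notch, Hippo and p63, 7 lay above 0 and the median was -0.14 (-0.07 with the trend removed). MAML1, a coactivator of Notch, stood at -0.25 (SE 0.09), and YAP1, an effector of Hippo signalling, stood at -0.19. The 17 KMT2 and COMPASS genes, which methylate histone H3, had a median of -0.12 (-0.07 with the trend removed), with SETD1B at -0.20 (SE 0.08).

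**Figure D5:**
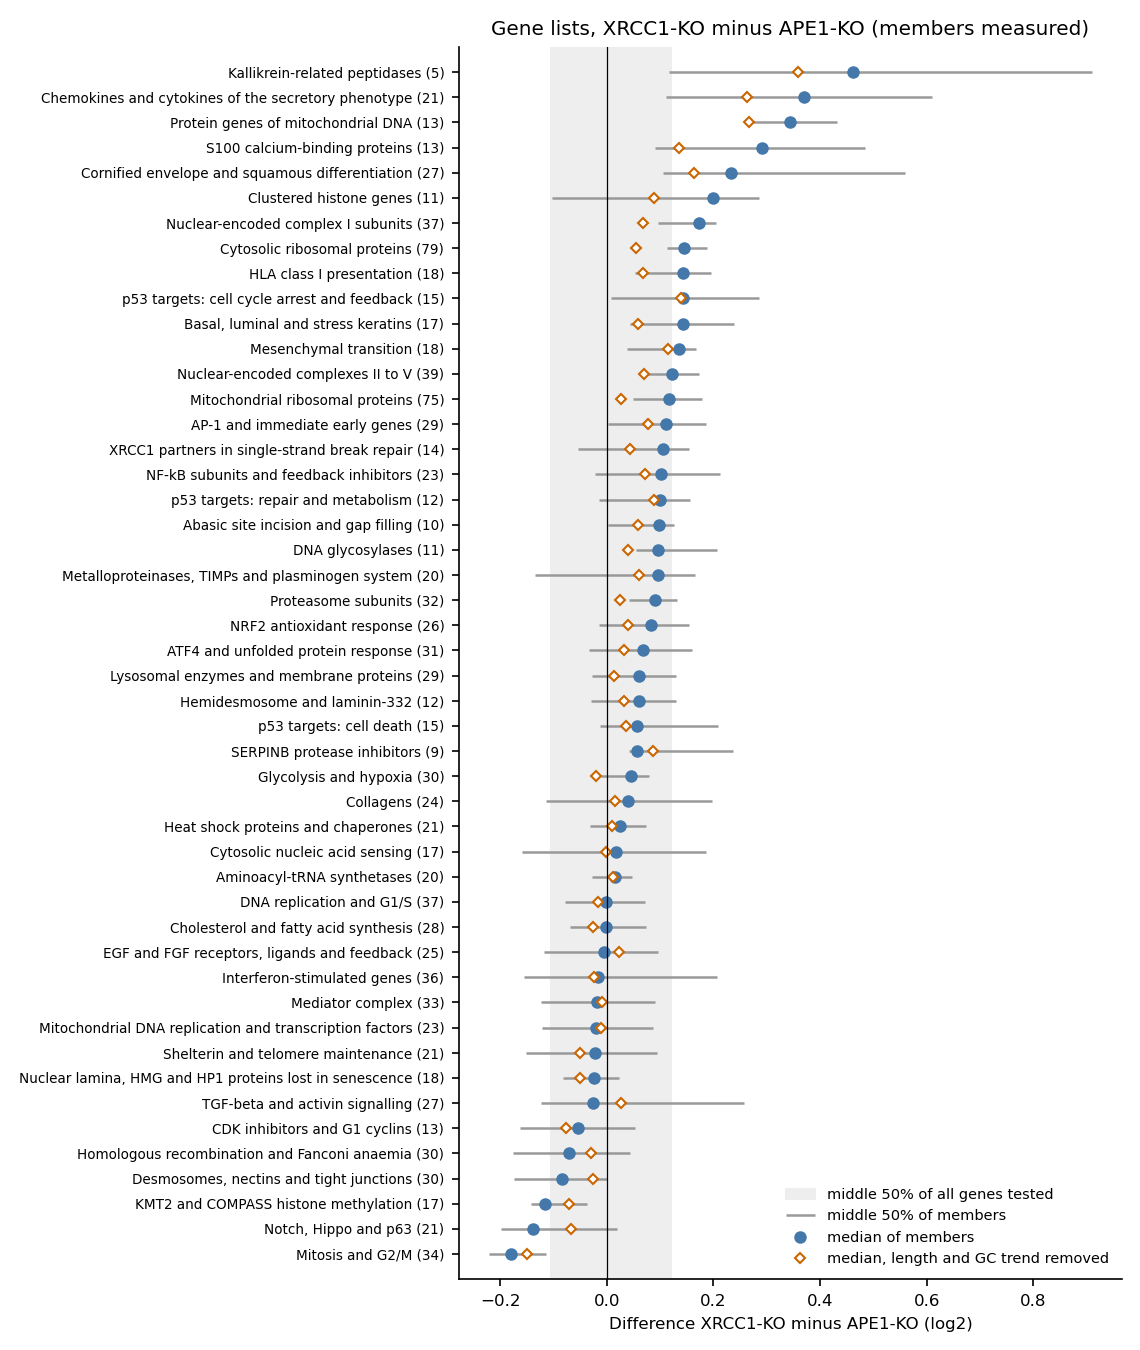
Median difference XRCC1-KO minus APE1-KO (log2, horizontal axis) of each list with at least 5 measured genes (number in brackets), with grey lines for the middle 50% of members, open diamonds for the median with the length and GC trend removed and a grey band for the middle 50% of all genes tested. Chemokines and cytokines (0.37) and genes of mitochondrial DNA (0.34) stand near the top, DNA replication (0.00) in the middle and mitosis (-0.18) at the bottom.

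Interferon responses and nucleic acid sensing were level between the knockouts on the whole. Of 36 measured interferon-stimulated genes 17 lay above 0, the median was -0.02, and 1 was higher and 0 lower at an unadjusted p under 0.05, or 2.78% against 2.77% of all genes. That member was ISG15, a ubiquitin-like modifier, with 3.83 CPM in XRCC1-KO, 2.67 CPM in APE1-KO and 3.25 CPM in Control-KO (0.52, SE 0.22). OAS1, an oligoadenylate synthetase, stood at -0.40 (SE 0.21), with TRIM14 at -0.18 and TRIM25 at -0.15. Of 17 genes of cytosolic nucleic acid sensing 9 lay above 0, with a median of 0.02. TREX1, the exonuclease that clears cytosolic DNA, had 5.44 CPM in XRCC1-KO, 3.73 CPM in APE1-KO and 4.33 CPM in Control-KO (0.54, SE 0.21). IFIH1, which encodes the RNA sensor MDA5, stood at -0.27 (SE 0.11) and its adaptor MAVS at -0.24. The 18 genes of HLA class I presentation had 15 members above 0 and a median of 0.14, then 0.07, with 0 past an unadjusted p of 0.05. HLA-C had 253 CPM in XRCC1-KO, 220 CPM in APE1-KO and 238 CPM in Control-KO (0.20, SE 0.10), and reads of the classical HLA genes can be shared between them.

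Telomere and recombination genes had members on both sides. Of 21 genes of shelterin and telomere maintenance 9 lay above 0, and the median was -0.02 (-0.05 with the trend removed). At an unadjusted p under 0.05, 2 were higher (9.52% against 2.77% of all genes) and 1 lower (4.76% against 2.7%). With the trend removed 1 was higher and 0 lower. CTC1, of the complex that helps fill in telomere ends, had 30.0 CPM in XRCC1-KO, 22.1 CPM in APE1-KO and 27.5 CPM in Control-KO (0.44, SE 0.16). TERF1, which binds the telomere repeat, had 31.9 CPM in XRCC1-KO, 37.5 CPM in APE1-KO and 31.4 CPM in Control-KO (-0.23, SE 0.08). NHP2, a protein of the telomerase RNA complex, stood at 0.20, and 0.04 with the trend removed. Of 30 genes of homologous recombination and the Fanconi anaemia pathway 10 lay above 0, with a median of -0.07, then -0.03. FANCB, of the Fanconi core complex, was the 1 member past an unadjusted p of 0.05, or 3.33% lower, near the 2.7% of all genes. It had 8.08 CPM in XRCC1-KO, 10.4 CPM in APE1-KO and 8.95 CPM in Control-KO (-0.36, SE 0.15).

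The remaining stress and metabolic lists stayed close to all genes. Their medians were 0.08 for 26 NRF2 antioxidant genes, 0.07 for 31 genes of ATF4 and the unfolded protein response, 0.05 for 30 of glycolysis and hypoxia, 0.06 for 29 lysosomal genes, 0.02 for 21 chaperones and 0.00 for 28 of cholesterol and fatty acid synthesis. Of these lists only 2 members had an unadjusted p under 0.05, ACLY, which supplies cytosolic acetyl-CoA, at -0.15, and the chaperone HSPA4L at -0.26. They make up 3.57% of the cholesterol and fatty acid list and 4.76% of the chaperone list, against 2.7% of all genes lower. With the trend removed ACLY stood at -0.13 and HSPA4L at -0.10, and neither was past that level. HMOX1, the haem oxygenase induced by NRF2, stood at 0.54 (SE 0.27) with 5.06 CPM in XRCC1-KO, 3.48 CPM in APE1-KO and 3.63 CPM in Control-KO. DDIT3, which encodes CHOP, stood at 0.56 (SE 0.33). Matrix lists had medians of 0.04 for 24 collagens and 0.10 for 20 metalloproteinases, TIMPs and plasminogen genes. The 18 mesenchymal genes stood further from all genes, with a median of 0.13, 15 above 0 and 0 past an unadjusted p of 0.05. With the trend removed their median was 0.11 and 16 of 18 lay above 0. On that scale 0 were higher and 1 lower at that level, or 5.56% lower against 1.08% of all genes. The 12 hemidesmosome and laminin-332 genes had a median of 0.06 and the 9 SERPINB inhibitors likewise 0.06.

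Along the genome the differences varied with GC content. Chromosome 19, with the highest median GC content of its transcripts at 59.3%, had a median of 0.08 over 758 genes, 70.7% of them above 0. Chromosome 13 had a median of -0.06 over 199 genes at 42.2% GC, and chromosome 4 likewise -0.06 over 420 genes. With the trend removed, medians of the autosomes and the X lay between -0.01 and 0.01. In running medians of 51 neighbouring genes the highest value was 0.15, over hg19 chr11:167784-3400448 with a median GC of 63.1%, and the lowest was -0.14, over hg19 chr15:49398268-63136830 with 39.1%. With the trend removed the extremes were 0.08, over hg19 chr19:50832910-55628927, which holds kallikrein and zinc finger genes, and -0.07, over hg19 chr1:117117031-151008189.

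Markers of the cell line were at comparable summed levels in the groups. The 5 basal mammary markers were all measured and summed to 8530 CPM in XRCC1-KO, 8312 CPM in APE1-KO and 8207 CPM in Control-KO, and 5 of 6 luminal markers summed to 916 CPM, 846 CPM and 851 CPM. Of other cell types, 3 of 9 fibroblast markers summed to 82.6 CPM in XRCC1-KO, 88.0 CPM in APE1-KO and 86.5 CPM in Control-KO, mostly FAP. The 4 of 13 leukocyte markers measured summed to 25.1 CPM, 24.9 CPM and 26.3 CPM, mostly CD68, while PTPRC was not among the genes tested. Of 8 endothelial markers KDR alone was measured, at under 1 CPM in XRCC1-KO, APE1-KO and Control-KO, and 4 of 8 neuronal markers summed to 323 CPM, 324 CPM and 301 CPM, nearly all TUBB3. SYT1, a neuronal vesicle gene, was the 1 marker of another cell type with an unadjusted p under 0.05, at -0.96 (SE 0.42) with 0.940 CPM in XRCC1-KO, 1.83 CPM in APE1-KO and 0.793 CPM in Control-KO.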

How the data were processed

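Poly(A) RNA of 9 MCF10A libraries was made into stranded libraries, per the labels' protocols. The submitters' processing notes list edgeR, Salmon 1.4.0, Trim Galore and hg19 without settings. The authors deposited 2 tables of knockout against Control-KO for the same 13052 genes. Per the file headers, each gives a log2 fold change, a mean log2 CPM, an F statistic, which is a score without a unit, a p-value, a false discovery rate and that p-value as −log10. The authors' deposited log2 values are rounded to 3 significant digits, and depth per library is unknown.

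Each standard error was recovered as the absolute log2 fold change over the square root of F (F under 0.01, with 830 genes for XRCC1-KO and 1485 for APE1-KO: that of the other comparison). The standard error of the difference takes a correlation of 0.5 between the comparisons, since the shared controls cancel. Degrees of freedom were solved from F and p (median 15.2). Tests were two-sided, with Benjamini-Hochberg adjustment over 13051 genes. On simulated data of 13052 genes the step recovered 48 of 100 genes changed by 0.5 and 82 of 100 changed by 1.0 (log2), with 4 false calls. The simulated data were built with the assumed correlation and equal spread, and without a length or GC trend. These counts therefore do not give the power or the false calls in the deposited data. Group levels in CPM were solved from the mean log2 CPM and both log2 fold changes, assuming that the mean weighs the groups equally, and are estimates.

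Transcript length and GC content came from the longest coding transcript in GENCODE 29 (98.4% of genes matched), and their trend was fitted with splines and robust weights on nuclear genes whose mean log2 CPM was 1 or more. The 52 gene lists (1317 entries, 1178 measured), the members and the naming rule were chosen with earlier results of these data known. Named are the targeted genes, up to 15 genes per direction with the smallest p among those whose mean log2 CPM was 1 or more, up to 4 members per list with the smallest p, and genes on opposite sides of 0 in the 2 tables; further names are marked as chosen after their values were seen, or are the members of a list past an unadjusted p of 0.05. Lists are described by counts and medians without a test. Alternatives were no covariance, the larger standard error, 6 degrees of freedom, a limit of 1 on the mean log2 CPM, median centring, trend removal and windows of 25 or 101 genes. Python 3.11.15, SciPy 1.17.1 and pandas 2.3.3 were used.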

Additional observations from a re-analysis of the deposited data

Results flagged for a closer look

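The effect on APEX1 differed between the knockouts by a test of the difference itself. The difference was 1.52 on the log2 scale in favour of XRCC1-KO (estimated 197 CPM in XRCC1-KO, 68.7 CPM in APE1-KO), the adjusted p was 4.72e-08 from the deposited edgeR statistics, and APEX1 is the gene targeted in APE1-KO.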

How the results depend on the processing

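Under the 6 alternatives for the test the number of genes past the adjusted threshold was 1 higher and 0 lower each time. The gene was APEX1, with adjusted p from 4.09e-08 to 0.0158, the last with 6 degrees of freedom. Unadjusted calls moved more: 61 higher and 35 lower with no covariance, 184 and 155 with 6 degrees of freedom, 325 and 405 after median centring, 303 and 139 with the trend removed. Of the 225 genes that the naming rule gives, 4 changed sign: the KDR difference was 0.0521, CD151 -0.0200 and CD68 -0.0669 with the trend removed, and the TUBB3 difference was -0.0017 after centring and -0.12 with the trend removed. Among genes named for their values or as neighbours, REL stood at 0.04, IRGQ at 0.04, PTTG1 at -0.08, BIRC5 at -0.01 and ZMAT3 at 0.14 with the trend removed, each on the other side of 0. The S100 median was 0.14 with the trend removed, and the kallikrein median -0.009 over genes whose mean log2 CPM was 1 or more, where 2 were left; the cause was not tested. List medians changed sign in 5 of 52 lists with the trend removed, in 4 with the CPM limit and in 0 after centring. With the trend removed, glycolysis and hypoxia went from 0.0458 to -0.0201 and cytosolic nucleic acid sensing from 0.0166 to -0.0019. TGF-beta and activin signalling went from -0.0263 to 0.0273, and EGF and FGF receptors, ligands and feedback from -0.0046 to 0.0236. The endothelial list, with KDR alone, went from -0.033 to 0.0521. No paired analysis was possible because the deposited columns hold comparisons and no values per library, so no library could be left out either. The group levels assume equal weights in the deposited mean, and the spread between libraries and their depth could not be examined.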

Other observations

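Within Mediator, the complex that links transcription factors to RNA polymerase II, 16 of 33 measured genes lay above 0, with a median of -0.02. At an unadjusted p under 0.05, 3 members were lower, or 9.09% against 2.7% of all genes. They were MED12 at -0.44, CDK19 at -0.38 and CDK8 at -0.19, and all belong to its kinase module. Whether the module differs from the rest of Mediator was not tested. CDK19 had an estimated 13.5 CPM in XRCC1-KO, 17.5 CPM in APE1-KO and 16.7 CPM in Control-KO, and CDK8 had 32.3 CPM in XRCC1-KO, 36.8 CPM in APE1-KO and 36.0 CPM in Control-KO. The module was looked up after these values were seen, and its other members stood at -0.31 for MED13, -0.18 for MED13L, -0.10 for MED12L and -0.03 for CCNC. With the trend removed MED12 stood at -0.39, CDK19 at -0.27, CDK8 at -0.17, MED13 at -0.15, MED13L at -0.04, MED12L at 0.03 and CCNC at 0.00. On that scale 2 of the 33 Mediator genes, MED12 and CDK8, were lower at an unadjusted p under 0.05, or 6.06% against 1.08% of all genes.

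Several of the largest differences belonged to genes whose reads can be assigned to a near-identical copy or an overlapping gene, all chosen after their values were seen. Of 11 genes whose mean log2 CPM was 1 or more and whose difference lay beyond 1, 5 had no symbol and APEX1 was another. The largest difference, 10.6 (SE 3.02), was that of a gene without a symbol, ENSG00000204775.4. It had 8.77 CPM in XRCC1-KO, 0.00566 CPM in APE1-KO and 0.00606 CPM in Control-KO. TMEFF1 stood at 1.19 (SE 0.99), and no copy or overlapping gene was looked up for it. SLX1A, a structure-specific nuclease subunit, had 4.77 CPM in XRCC1-KO, 0.00476 CPM in APE1-KO and 5.60 CPM in Control-KO, while its copy SLX1B had 39.2 CPM in XRCC1-KO, 41.4 CPM in APE1-KO and 34.4 CPM in Control-KO. EIF3CL stood at 1.53 and its copy EIF3C at -0.05. The readthrough genes ATP6V1G2-DDX39B and ANKHD1-EIF4EBP3 stood at 1.23 and 1.21, while DDX39B and ANKHD1 stood at 0.11 and -0.15. These genes did not pass the adjusted test, and the part of read assignment in their values was not tested.

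ESR1, the oestrogen receptor gene, had an estimated 90.4 CPM in XRCC1-KO, 110 CPM in APE1-KO and 95 CPM in Control-KO, chosen after its value was seen, although the line is known as oestrogen receptor negative.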
